A study of Mus musculus with 6 samples.

Results

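The genes described here code for the cell-cell junctions of the kidney: the claudins, the other proteins of the tight junction (occludin, the MARVEL-domain proteins, the junctional adhesion molecules, the scaffolds of the Tjp family and cingulin) and the cadherins. They were taken by gene symbol, as every non-control probe whose symbol is Cldn, Cdh or Tjp with a number, Ocln, Marveld1 to Marveld3, F11r, Jam2, Jam3 or Cgn. That gave 99 probes for 57 genes, of 56599 probes and 37323 genes measured. Total RNA of the renal cortex of male C57BL/6 mice was hybridised to 6 1-colour Agilent arrays, 3 labelled WT and 3 labelled C3aR-/-, the latter lacking the receptor for the complement fragment C3a. Both groups carry the same diabetes model. Feeding of a diet with 60% of calories from fat began at 8 weeks of age, streptozotocin (60 mg/kg), which kills pancreatic beta cells, was injected after 4 weeks of it on 3 days in a row, and tissue was taken 26 weeks after induction. Non-diabetic animals were not analysed here and the comparison is between genotypes within diabetes; the labels give the loss as C3aR-/- and name no cell type for it. Nothing in the labels says that samples were separate animals, so p-values measure only the spread between these samples.

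Tight junctions seal the space between neighbouring epithelial cells, and claudins line that seal, each setting which ions pass between cells. Along the nephron every segment carries its own claudins, so the leaky proximal tubule, the cation-selective thick ascending limb and the tight collecting duct differ in what they let through. Cadherins hold the same cells together through calcium-dependent binding of their outer domains, linked by catenins to actin inside.

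To show what the arrays read in these gene families, probe sequences are given for 2 pairs of claudins of different segments and for a pair of closely related cadherins. Each is 60 bases in the sense of the transcript, from the deposited array design, with mm9 positions from the same files. In the first pair, from the first extracellular loop, the in-frame cysteine codons are in capitals; cysteines of this loop form the disulphide bond that claudins share. The Cldn2 probe lies at chrX:136343432-136343491 on the plus strand and holds 1 such codon, and the Cldn16 probe lies at chr16:26474305-26474364 on the plus strand and holds 2.
Cldn2: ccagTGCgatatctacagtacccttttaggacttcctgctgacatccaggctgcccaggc
Cldn16: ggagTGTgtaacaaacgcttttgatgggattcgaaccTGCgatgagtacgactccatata
In the second pair, capitals mark the codons for phenylalanine, an aromatic residue, asparagine and proline, a turn of the second extracellular loop that many claudins share. The Cldn4 probe lies at chr5:135422135-135422194 on the minus strand and the Cldn19 probe at chr4:118929768-118929827 on the plus strand.
Cldn4: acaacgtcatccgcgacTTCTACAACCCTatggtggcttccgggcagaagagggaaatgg
Cldn19: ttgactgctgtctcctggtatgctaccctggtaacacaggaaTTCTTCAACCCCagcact
Outside these short shared codons the claudin probes had little in common: of 4781 pairs of probes of different junction and cadherin genes, 3 were at least 70% identical over 50 bases or more, and the next highest pair reached 56.4%. Those 3 pairs all joined probes of Cdh6, Cdh9 and Cdh10, classical cadherins whose cytoplasmic tails are alike. The closest pair is shown with its 10 differing bases in capitals, Cdh6 at chr15:12963981-12964040 on the minus strand and Cdh9 at chr15:16785915-16785974 on the plus strand.
Cdh6: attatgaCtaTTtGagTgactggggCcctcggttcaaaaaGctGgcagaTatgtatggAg
Cdh9: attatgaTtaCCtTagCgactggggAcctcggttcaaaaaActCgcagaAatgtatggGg
These probes share 50 of 60 bases, or 83.3%. The Cdh6 probe was well above background on 6 of 6 arrays and the Cdh9 probe on 0 of 6, so 1 of these near copies gave a signal and the other did not.

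Of the 57 genes, 42 had a probe that rose well over the local background on 3 or more arrays, and these were tested: 19 of 23 claudins, 11 of 11 other tight junction proteins and 12 of 23 cadherins. A gene that passed only through 1 group had to differ, so counts below are over tested genes and not over the families. Of the 15 genes not tested, 10 were not well above background on any array, among them Cldn13, Cldn22, Cdh9, Cdh10 and Cdh12. The other 5, Cldn11, Cldn17, Cdh7, Cdh15 and Cdh17, were above it on too few arrays. Without the filter Cldn11, a claudin of myelin and testis, was under 0.05 before adjustment, as were 3.27% of all genes. It read -5.07, -5.11 and -3.99 in WT, above background on 2 arrays, and -6.00, -5.67 and -5.69 in C3aR-/-, not well above background on any. It is named after its values were seen. Cldn17, an anion channel of the proximal tubule, was therefore the only segment claudin without a test. Levels below are on the log2 scale, as the signal over the 75th percentile of its own array, and every difference is C3aR-/- minus WT with its limma standard error. Levels of different genes come from different probes and are not set against each other.

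No junction or cadherin gene passed the test across all genes, and neither did any other gene: 0 of 22741, or 0%, had a limma p under 0.05 after Benjamini-Hochberg adjustment. Without adjustment 1111 genes, or 4.89%, were under 0.05, 2.21% higher and 2.68% lower in C3aR-/-. Among the 42 tested junction and cadherin genes 2 were, or 4.76%, close to the share of all genes: Cldn3, a sealing claudin of the distal nephron, read lower and Cldn18, a claudin of lung and stomach, read higher. In 5 of the 42, or 11.9%, every array of one group lay beyond every array of the other, against 9.85% of all genes (5.66% higher and 4.19% lower). Cldn18 was the gene on the higher side, and Cldn3, Cldn7, Cdh3 and Marveld3 were on the lower side. Differences were small: the median over the 42 was -0.02 and over all genes 0.03, and the median size without sign was 0.10 against 0.12. For 36 of the 42 the 95% interval of the difference lay within 2-fold in either direction, a share of 85.7% against 87.3% of all genes. The 6 with wider intervals were Cldn1, Cldn3, Cldn4, Cldn6, Cldn23 and Cdh6. In whole cortex, fewer cells of a type and less RNA per cell cannot be told apart.

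**Figure D1:**
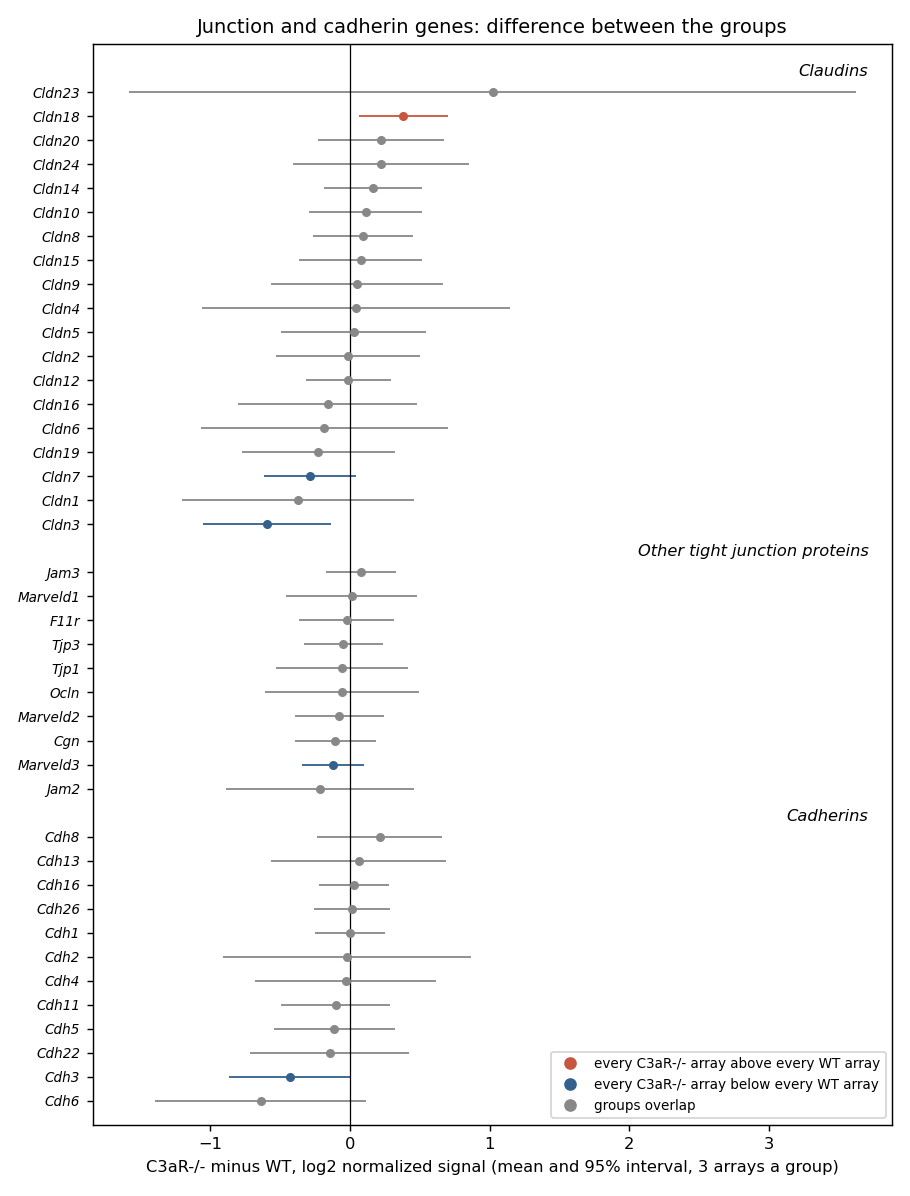
Difference in log2 signal, C3aR-/- minus WT, for 41 of the 42 tested junction and cadherin genes, ordered within each family, with bars for the 95% limma interval over 3 arrays a group. Red and blue mark genes whose groups do not overlap; Cldn3 and Cldn18 are the genes whose interval leaves out 0, and the bar of Cldn23 is by far the widest.

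The arrays lay on 1 slide and were read in 1 scan, with between 58.6% and 63.0% of probes well above background and none saturated. The targeted gene, C3ar1, averaged -3.48 on WT arrays against -4.58 on C3aR-/- arrays, which is -1.10 ± 0.30, with no overlap (limma, adjusted p = 0.931). Its probe was still well above background on 2 of the 3 C3aR-/- arrays, at 0.466 of the WT signal, and whether it lies in the deleted part is not known here. WT 1 and C3aR-/- 2 stood at opposite ends of the first principal component, which held 43.1% of the variance. WT 1 and C3aR-/- 3 occupied row 2 of the slide and the other 4 arrays row 1. Differences given below within row 2 are therefore 1 array against 1, with no measure of spread. Every marker of the cortical cell types tested was detected, from proximal tubule to podocyte and endothelium.

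Among the claudins of the distal tubule and collecting duct, Cldn3 and Cldn7 read lower in C3aR-/- while Cldn4 and Cldn8 had differences near 0. Cldn3, which tightens the junction, read 2.29, 1.74 and 2.20 on the WT arrays. On the C3aR-/- arrays it read 1.47, 1.26 and 1.72. The lowest WT array lay just above the highest C3aR-/- array, and the 2 groups did not overlap. The means were 2.08 ± 0.29 (SD, n = 3) and 1.48 ± 0.23 (SD, n = 3), a difference of -0.59 ± 0.19, or 0.663 of the WT signal with a 95% interval from 0.483 to 0.910 (limma, adjusted p = 0.931). Within slide row 1 the difference was -0.61, and within row 2, with 1 array a group, it was -0.57. It was no longer under 0.05 before adjustment without WT 1 (-0.49), without WT 3 (-0.53), without C3aR-/- 2 (-0.48), or without WT 1 and C3aR-/- 2 together (-0.38).

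Cldn7, another claudin of the distal nephron, read 2.81, 2.56 and 2.75 in WT. It read 2.52, 2.54 and 2.20 in C3aR-/-. The groups were separated by a narrow gap, and 1 C3aR-/- array, number 3, lay well below the others. The difference was -0.28 ± 0.14 with an interval from -0.61 to 0.04 (limma, adjusted p = 0.931), and it was -0.12 within slide row 1 and -0.61 within row 2. Cldn8, which with Cldn4 forms the chloride pathway of the collecting duct, read 2.81, 2.60 and 2.40 in WT and 2.53, 2.88 and 2.69 in C3aR-/-. The groups were fully mixed, with a difference of 0.09 ± 0.15. Cldn4 read -2.51, -3.48 and -3.84 in WT and -2.53, -3.93 and -3.24 in C3aR-/-. Each group held 1 high array, WT 1 and C3aR-/- 1, and the spread within a group was over 1 log2 unit. Its difference of 0.04 ± 0.46 had an interval from -1.06 to 1.14, which allows 2-fold either way. Without WT 1 and C3aR-/- 2 it was 0.78, with an unadjusted limma p under 0.05, as 8.9% of all genes had in that setting. For Cldn4 the arrays left in thus decide the value.

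Cldn3 and Cldn4 are neighbours, their probes 41.1 kb apart on chromosome 5 (mm9), and the 2 genes read -0.59 and 0.04. The interval of Cldn4 holds the value of Cldn3. Within slide rows 1 and 2 the differences were 0.43 and -0.73 for Cldn4, and -0.61 and -0.57 for Cldn3. The contrast between the genes was not tested. The summed signal of 10 collecting duct markers was higher in C3aR-/-, from 49.8 to 51.6 in WT and from 55.9 to 60.1 in C3aR-/- (in units of the array's 75th percentile), with 10 of 10 markers higher. The largest differences were those of Slc26a4, the anion exchanger pendrin of intercalated cells, at 0.27 ± 0.10 (limma, adjusted p = 0.931), and of Aqp2, the water channel of principal cells, at 0.26 ± 0.17. The smallest were those of Scnn1b at 0.01 ± 0.27, Slc4a1 at 0.07 ± 0.23, Atp6v0d2 at 0.09 ± 0.12 and Aqp3 at 0.09 ± 0.25. Slc26a4 was the largest part of the sum, with log2 means of 4.38 in WT and 4.66 in C3aR-/-. Distal convoluted tubule markers summed to 85.7 to 113.9 in WT and 116.5 to 146.9 in C3aR-/-, with 5 of 7 higher. Most of that sum was the signal of Calb1, with log2 means of 6.32 in WT and 6.67 in C3aR-/-. The 2 lower markers were Trpv5 at -0.46 ± 0.22 and Klhl3 at -0.38 ± 0.32. Slc12a3, among the 5 higher, differed by 0.06 ± 0.16. The lower Cldn3 and Cldn7 signals stood beside higher signals of all 10 collecting duct markers and of 5 of the 7 distal convoluted markers.

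Markers of injured tubule cells read lower in C3aR-/- for 11 of 11 genes, with a median difference of -0.66. Their summed signals ran from 575.6 to 695.6 in WT and from 498.2 to 579.2 in C3aR-/-, with WT 1 far above the other WT arrays, which read 575.6 and 583.0. Macrophage markers were lower for 9 of 9 (sums of 58.3 to 85.9 in WT and 37.6 to 52.8 in C3aR-/-) and T cell markers for 8 of 8 (6.57 to 9.51 and 3.94 to 4.68). None of these markers was at background on all arrays, and their part in the claudin and cadherin differences was not tested.

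**Figure D2:**
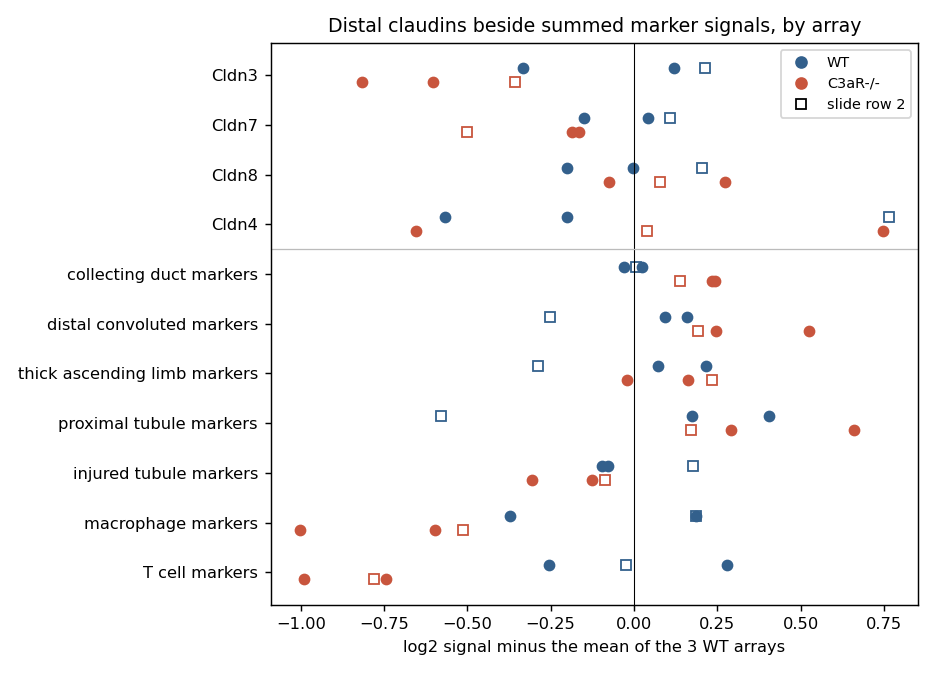
Log2 signal of 4 distal claudins (upper rows) and of the summed markers of 7 cell types or states (lower rows) on each array, minus the mean of the 3 WT arrays. Cldn3 and Cldn7 sit left of WT on every C3aR-/- array, while the collecting duct and distal convoluted sums sit right of every WT array and the macrophage and T cell sums sit left of them.

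The claudins of the proximal tubule had differences near 0. Cldn2, the pore for sodium and water there, read 3.91, 3.87 and 3.20 in WT and 3.46, 3.73 and 3.75 in C3aR-/-. A single WT array, number 3, was low and the rest lay together, and the difference was -0.01 ± 0.21 with an interval from -0.53 to 0.50. The coding probe shown above, which is a second Cldn2 probe, differed by -0.03. Cldn12 read 4.09, 3.85 and 3.77 in WT and 3.95, 3.76 and 3.96 in C3aR-/-, a difference of -0.01 ± 0.13. Its values overlapped throughout. The proximal tubule markers beside them, 12 of 12, were higher in C3aR-/-, with a median difference of 0.46 and sums of 602.7 to 1190 in WT and 1014 to 1424 in C3aR-/-. WT 1 was the low array of that sum.

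Cldn10 has forms for both the proximal tubule (an anion pore) and the thick ascending limb (a cation pore), and the gene has 1 probe here, whose place among the isoforms was not examined. It read 3.16, 3.62 and 3.35 in WT and 3.37, 3.74 and 3.35 in C3aR-/-, a difference of 0.11 ± 0.17. The highest array of each group was its number 2, and the groups overlapped.

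Cldn16 and Cldn19 together form the pathway for calcium and magnesium in the thick ascending limb, and Cldn14 blocks it. Cldn16 read -0.30, -0.77 and -0.87 in WT and -1.11, -1.02 and -0.28 in C3aR-/-. Cldn19 read -0.999, -1.40 and -1.42 in WT and -1.67, -1.77 and -1.04 in C3aR-/-. Both genes had the same pattern, in which WT 1 and C3aR-/- 3, the arrays of slide row 2, were high and the other 4 were low. Their differences were -0.16 ± 0.27 and -0.22 ± 0.23, and they were -0.24 and -0.31 within row 1 and 0.017 and -0.046 within row 2. Without C3aR-/- 3, Cldn19 was at -0.45 and under 0.05 before adjustment, as were 5.2% of all genes. Cldn14 read -4.11, -3.80 and -4.24 in WT and -4.00, -3.75 and -3.90 in C3aR-/-, a difference of 0.17 ± 0.15, so it did not share that pattern. Thick ascending limb markers were higher in C3aR-/- for 6 of 6, with a median difference of 0.15 and overlapping sums (275.7 to 391.2 in WT, 331.7 to 396.2 in C3aR-/-).

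**Figure D3:**
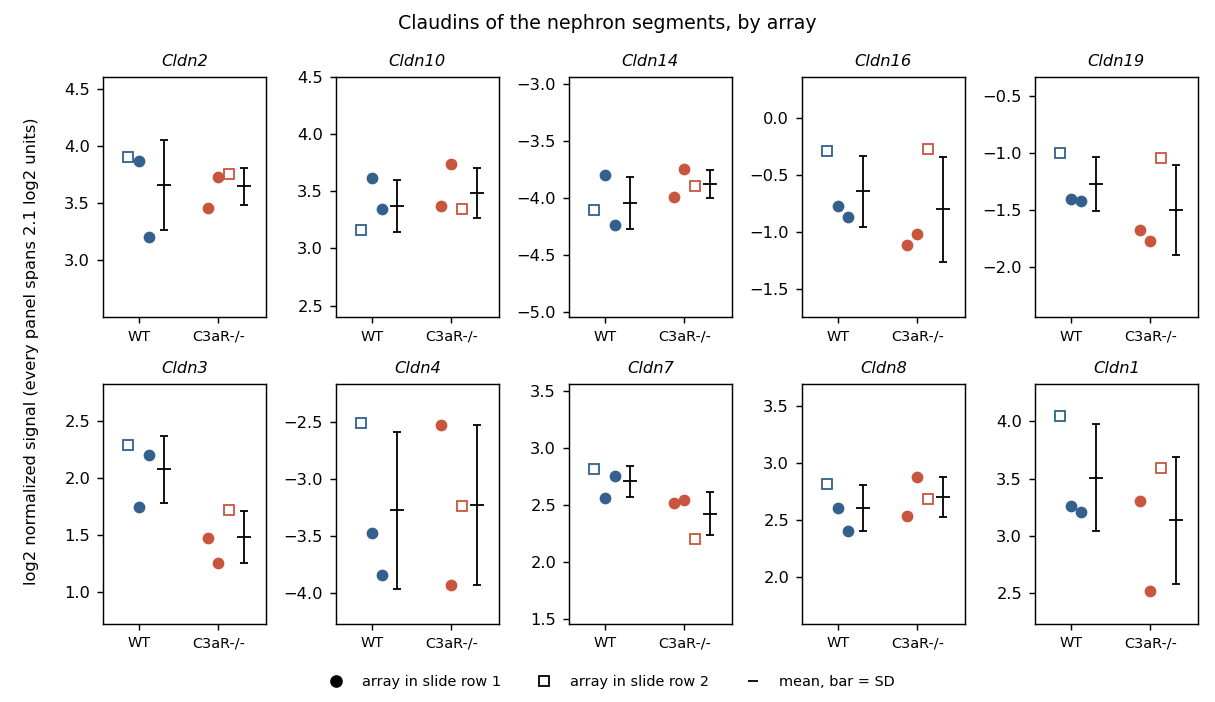
Log2 signal of 10 segment claudins on each array, with the mean and SD of each group and every panel spanning the same 2.1 log2 units. Open squares are the 2 arrays of slide row 2, which are the highest arrays for Cldn1, Cldn16 and Cldn19; Cldn3 and Cldn7 are the panels without overlap between groups.

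The pattern by slide row was common to several junction genes. In 11 of the 42 tested genes, or 26.2%, both row 2 arrays lay above all 4 row 1 arrays, against 11.2% of all genes, and in 2 genes, Cldn9 and Cdh8, both lay below, against 12.3%. The 11 were Cldn1, Cldn6, Cldn12, Cldn16, Cldn19, Ocln, Marveld2, F11r, Cdh1, Cdh2 and Cdh11. This count was made after the values were seen, and its cause was not tested. The same 2 arrays had the highest values of the first principal component, 50.5 for WT 1 and 7.77 for C3aR-/- 3. They were also the highest for the injured tubule markers Havcr1 (4.98 and 3.50), Krt20 (5.05 and 3.89) and Vcam1 (3.67 and 2.85). They were not for the rest of the 11 injured tubule markers, among them Sox9 and Lcn2. Whether the pattern follows slide position or another difference between these arrays was not tested. Each row held both genotypes. With row as a block in the limma fit, 4 of the 42 genes were under 0.05 before adjustment, against 7.66% of all genes: Cldn3, Cldn18, Cdh3 and Cdh6.

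Of the claudins of the glomerulus and vessels, Cldn1, which lines Bowman's capsule, read 4.05, 3.26 and 3.21 in WT and 3.30, 2.51 and 3.59 in C3aR-/-. The spread inside each group was as large as the difference of -0.37 ± 0.34. Cldn5, the main endothelial claudin, read 0.60, 0.60 and 1.08 in WT and 1.15, 0.49 and 0.73 in C3aR-/-, a difference of 0.03 ± 0.22. Cldn15, a cation pore best known from gut, read 0.58, 0.19 and 0.77 in WT and 0.81, 0.50 and 0.47 in C3aR-/-, a difference of 0.08 ± 0.18. Neither gene separated the groups. Endothelial markers were higher for 9 of 9 genes with a median difference of 0.20, and their sums overlapped (64.8 to 91.3 in WT, 65.9 to 94.4 in C3aR-/-). Over the 13 tested segment claudins of all groups, 6 differences were above 0 and 7 below, with a median of -0.01.

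Cldn18 was the junction gene with higher signals on all C3aR-/- arrays. It read -4.57, -4.29 and -4.70 in WT and -4.08, -4.23 and -4.10 in C3aR-/-. The gap between the groups was narrow, set by WT 2 and C3aR-/- 2. The difference was 0.38 ± 0.13, or 1.30 times the WT signal with an interval from 1.05 to 1.63 (limma, adjusted p = 0.931), and it was 0.34 and 0.47 within slide rows 1 and 2. These signals lie far below the array's 75th percentile, though above background on all 6 arrays. With normexp background correction the difference was 0.15 and no longer under 0.05 before adjustment. The same held on leaving out WT 1 (0.36), WT 3 (0.29), C3aR-/- 1 (0.36), C3aR-/- 3 (0.36), or WT 1 and C3aR-/- 2 together (0.41). Cldn18 is not a claudin of any nephron segment listed here.

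The tight junction proteins outside the claudins had 9 of 11 differences below 0 with a median of -0.06, and none with a p under 0.05. That median turned to 0.038 with array weights, to 0.0098 without WT 1, and to 0.078 without WT 1 and C3aR-/- 2 together. All 11 intervals lay within 2-fold. Occludin (Ocln), the membrane protein that marks the tight junction, read -0.64, -1.11 and -1.52 in WT and -1.20, -1.26 and -0.98 in C3aR-/-, a difference of -0.06 ± 0.23. WT arrays spanned the whole C3aR-/- range. Marveld3, a relative of occludin, read 1.28, 1.21 and 1.27 in WT and 1.14, 1.06 and 1.19 in C3aR-/-. Its groups did not overlap, but the gap was small and the difference was -0.12 ± 0.09 (limma, adjusted p = 0.931). Marveld3 is named because its groups did not overlap, a choice made after its values were seen. Marveld2, known as tricellulin for its place where 3 cells meet, differed by -0.07 and Marveld1 by 0.01, and both had a second probe with the opposite sign.

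The scaffolds tie claudins and occludin to actin, and by the probe used per gene those described here had differences near 0. Tjp1, or ZO-1, read 2.32, 1.74 and 1.92 in WT and 2.15, 1.68 and 1.98 in C3aR-/-, a difference of -0.06 ± 0.19. Its lowest array in both groups was number 2. Tjp3 read 2.09, 2.0015 and 2.32 in WT and 2.14, 2.02 and 2.12 in C3aR-/-, a difference of -0.05 ± 0.12. Cingulin (Cgn), a cytoplasmic partner of ZO-1, read 2.19, 1.81 and 1.98 in WT and 1.86, 1.87 and 1.93 in C3aR-/-, a difference of -0.10 ± 0.12. None of these genes had groups apart. Their second probes differed by -0.28 ± 0.19 for Tjp1, -0.11 ± 0.11 for Tjp3 and -0.31 ± 0.31 for Cgn.

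The junctional adhesion molecules, immunoglobulin-like proteins of epithelial and endothelial contacts, also overlapped. F11r, or JAM-A, read 4.10, 3.70 and 3.68 in WT and 3.78, 3.75 and 3.89 in C3aR-/-, a difference of -0.02 ± 0.14. Jam2, found mainly in endothelium, read -0.84, -1.86 and -1.16 in WT and -1.41, -1.79 and -1.30 in C3aR-/-, a difference of -0.21 ± 0.28. WT 2 was the lowest array of Jam2, and without it Jam2 was -0.50 and under 0.05 before adjustment. In that setting 6.7% of all genes were under 0.05. Jam3 read 1.78, 1.86 and 1.66 in WT and 1.88, 1.92 and 1.75 in C3aR-/-, a difference of 0.08 ± 0.10.

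Among the cadherins, Cdh1 and Cdh16 had the narrowest intervals of the named cadherins and differences near 0. Cdh1, or E-cadherin, read 3.03, 2.78 and 2.83 in WT and 2.87, 2.87 and 2.91 in C3aR-/-. The C3aR-/- arrays lay within 0.05 of each other and inside the WT range, and the difference was 0.00 ± 0.10. The 95% interval, not adjusted for the number of genes, ran from 0.840 to 1.19 times the WT signal. Cdh16, the kidney-specific cadherin of tubule cells, read 7.07, 7.24 and 7.26 in WT and 7.14, 7.29 and 7.23 in C3aR-/-, a difference of 0.03 ± 0.10 with an interval from 0.858 to 1.21 times. A second Cdh16 probe differed by 0.18 ± 0.12.

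Cdh2 and Cdh6 are the cadherins of proximal tubule cells, and they read unlike each other. Cdh6 read 0.55, -0.36 and 0.28 in WT and -0.54, -0.92 and 0.01 in C3aR-/-. The groups overlapped through WT 2, the low WT array. The difference of -0.64 ± 0.31 was the lowest among the 42 genes, at 0.642 of the WT signal with an interval from 0.380 to 1.09 (limma, adjusted p = 0.931), and it was -0.69 and -0.55 within slide rows 1 and 2. Its other probes, the one shown above and another, differed by -0.64 and -0.25, so all 3 had the same sign. Leaving out WT 2 gave -0.90 and leaving out C3aR-/- 3 gave -0.88, both under 0.05 before adjustment. In those settings 6.7% and 5.2% of all genes were under 0.05. Without WT 1 and C3aR-/- 2, however, the Cdh6 difference was -0.22.

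Cdh2, or N-cadherin, read 1.17, 0.01 and 0.17 in WT and 0.61, -0.11 and 0.78 in C3aR-/-. Its arrays spanned more than 1 log2 unit in WT, with WT 1 the highest of all 6. The difference was -0.02 ± 0.37, with an interval from 0.532 to 1.83 times, and it was 0.16 within slide row 1 and -0.39 within row 2. Without WT 1 and C3aR-/- 2 the sign turned and the difference was 0.61. Cdh2 was then under 0.05 before adjustment, as were 8.9% of all genes, so its value rests on which arrays are kept. Proximal tubule markers, higher in C3aR-/- for 12 of 12, stood beside both cadherins, and Cdh6 read the other way. Of these 12 markers 0 were under 0.05 before adjustment, against 4.89% of all genes, and WT 1 was the low array of their sum. Cdh6 read lower in C3aR-/-, as the injured tubule markers did, and their part in it was not tested.

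Cdh3, or P-cadherin, read -0.01, -0.64 and -0.49 in WT and -0.91, -0.82 and -0.71 in C3aR-/-. WT 1 was far above the rest, and the other WT arrays lay just above the highest C3aR-/- array, so the groups did not overlap. The difference was -0.43 ± 0.18, or 0.742 of the WT signal with an interval from 0.549 to 1.002 (limma, adjusted p = 0.931), and it was -0.30 and -0.70 within slide rows 1 and 2. It was -0.24 without WT 1 and -0.56 without WT 2. Cdh3 came under 0.05 before adjustment without WT 2, and also with quantile normalization, normexp, the authors' deposited table, the filter on all arrays and the slide row block. In these settings the share of all genes under 0.05 ran from 4.44% (normexp) to 7.66% (slide row block). Cdh3 is named because its groups did not overlap, a choice made after its values were seen. Its neighbour Cdh1, with a probe 113.8 kb away on chromosome 8 (mm9), read 0.00.

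The cadherins of vessels and stroma overlapped. Cdh5, or VE-cadherin, the cadherin of endothelial junctions, read 0.44, 0.33 and 0.82 in WT and 0.60, 0.50 and 0.16 in C3aR-/-, a difference of -0.11 ± 0.18. Cdh11, a cadherin of mesenchymal cells, read 1.26, 0.76 and 0.92 in WT and 0.92, 0.69 and 1.02 in C3aR-/-, a difference of -0.10 ± 0.16. Fibroblast and pericyte markers beside it were lower for 6 of 7 genes with a median difference of -0.22. Cdh13, a cadherin with a lipid anchor in place of a tail, read -2.33, -2.27 and -1.69 in WT and -1.72, -2.49 and -1.89 in C3aR-/-, a difference of 0.06 ± 0.26. Over all 12 tested cadherins 5 differences were above 0 and 7 below, with a median of -0.03.

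**Figure D4:**
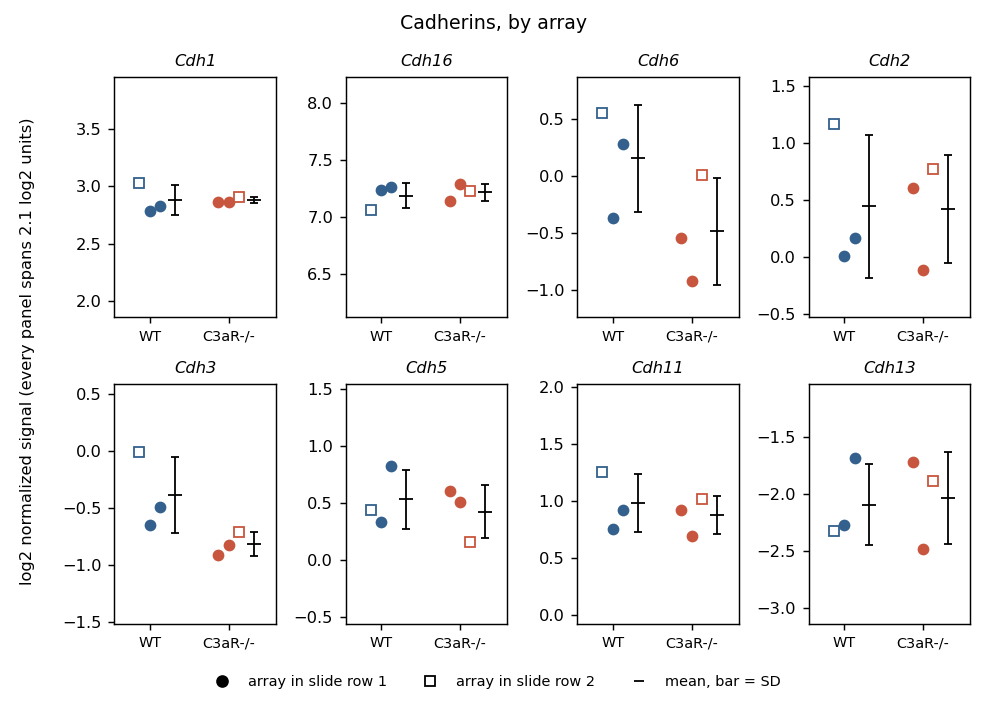
Log2 signal of 8 cadherins on each array, with the mean and SD of each group and every panel spanning 2.1 log2 units. Cdh1 and Cdh16 are tight in both groups, and Cdh3 is the panel without overlap. Open squares (slide row 2) are the highest in each group for Cdh1, Cdh2, Cdh3, Cdh6 and Cdh11.

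The 11 other tested members, 7 above 0 and 4 below, had differences from -0.18 to 1.02 and none with a p under 0.05. The highest was Cldn23, which read -3.85, -5.89 and -5.54 in WT and -6.48, -2.77 and -2.97 in C3aR-/-. It was above background on 1 WT array and 2 C3aR-/- arrays, and its difference of 1.02 ± 1.08 covers values of both signs. Without C3aR-/- 1, its lowest array, Cldn23 and Cldn20 were under 0.05 before adjustment, as were 3.37% of all genes.

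No partner of these proteins passed the threshold even before adjustment. Of 76 tested genes in 4 lists of other junction genes, 35 were higher and 41 lower, with a median of -0.01 and 0 with a limma p under 0.05, against 4.89% of all genes. In adherens junction partners (11 higher, 10 lower) the smallest p belonged to Ctnnd2, the delta-catenin of neurons, at -1.02 ± 0.47, and Lmo7, a linker to actin, at 0.19 ± 0.12. In tight junction partners and polarity genes (15 higher, 17 lower) they were Ildr2, an angulin of tricellular contacts, at 0.26 ± 0.15, and Bves, an adhesion protein, at -0.41 ± 0.26. In 6 tested desmosome genes (1 higher, 5 lower) they were Pkp3, a plakophilin, at -0.25 ± 0.15 and Dsc3, a desmosomal cadherin, at 0.18 ± 0.14. In 17 regulators of the epithelial state (8 higher, 9 lower) they were Ovol2, a repressor that keeps cells epithelial, at 0.21 ± 0.12 and Tcf3, a repressor of E-cadherin, at -0.13 ± 0.09.

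Promoters were searched for the E-box CAGGTG (and its reverse CACCTG), bound by the repressors of E-cadherin, in the 250 bases before the start sites that RefSeq gives on GRCm38.p6. Of 52 promoters of 39 junction and cadherin genes, 10 held it, or 19.2%, against 17.2% of all 32851 promoters. The GC box GGGCGG (or CCGCCC), bound by Sp factors, was in 24 of the 52, or 46.2%, and in 32.7% of all promoters. Promoters of 1 gene can overlap and are not independent. Matches are descriptions of letters and not sites.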

How the data were processed

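Groups came from the sample titles. Per the labels, total RNA was labelled with Cy3 and hybridised to 1-colour arrays; each array's 62976 spots were quantified with Agilent Feature Extraction 10.7.1.1, per the submitters' processing notes. The deposited intensity values (processed signal) are, per the file headers, background-subtracted and detrended but not normalized between arrays. The authors' deposited table holds log2 values and served as an alternative, and its making is not stated in these sources. Its columns share a median of 5.73, and its differences were nearly those of quantile normalization (Cldn3 -0.595 and -0.594). These alternatives are therefore not separate checks.

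Control and flagged spots were left out, spots of a probe averaged, log2 values centred on each array's 75th percentile, probes kept if 3 or more arrays had them well above background, and the probe with the highest mean used per gene. Differences were fitted over all 22741 genes with limma 3.58.1 in R 4.3.3 (lmFit, eBayes, Benjamini-Hochberg adjustment, threshold 0.05), a procedure tested on simulated data. Members and gene lists were chosen with earlier results of these data known. Genes with per-array values are the segment claudins, occludin, scaffolds, junctional adhesion molecules, the main renal cadherins and members with p under 0.05, plus Cdh3, Marveld3, Cldn11 and Cldn23, chosen after their values were seen; of other lists, the 2 smallest p. The values of 1 tested member are not reported here, though it stays in the counts and medians. Arrays give no counts, so their number (6) limits precision. Alternatives were quantile normalization, normexp (offset 50), the authors' table, 2 other filters, the mean of probes, single probes, array weights, replicate and slide row blocks, and leaving out arrays. Figures were drawn with matplotlib 3.10.9.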

Additional observations from a re-analysis of the deposited data

How the results depend on the processing

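No gene passed adjustment under any of the 16 alternatives. The count of junction and cadherin genes with p under 0.05 before adjustment was 4 with slide row as a block, against 7.66% of all genes. On leaving out arrays it ran from 0, without WT 1 and without WT 3, to 5 without WT 2. The shares of all genes in those 3 settings were 4.89%, 3.99% and 6.7%. Whether the replicate numbers pair the samples cannot be decided with 3 arrays a group. Deviations of same-numbered arrays correlated at 0.13, 0.41 and -0.09. With the replicate block 2 of the 42 genes were under 0.05, Cldn3 and Cdh6, against 7.02% of all genes. Junction and cadherin genes whose groups did not overlap numbered from 5 to 15 on leaving out arrays. The lowest count was without C3aR-/- 2, where 19.3% of all genes did not overlap. The highest was without WT 1 and C3aR-/- 2 together, where 41.7% of all genes did not overlap either, because fewer arrays make separation easier. On leaving out arrays the median difference ran from -0.24 (without WT 3) to 0.10 for segment claudins, from -0.12 to 0.078 for other tight junction proteins, and from -0.19 (without WT 2) to -0.0051 for cadherins. Array weights turned the medians of the last 2 groups to 0.038 and 0.0044. Of 31 named genes, 9 kept their direction in every alternative run, among them Cldn3, Cldn7, Cldn14, Cldn18, Jam3, Marveld3, Cdh3 and Cdh6. The other 22 turned sign in 66 values in all, out of 508 single-gene values over the 31 genes, and the cause was not tested. On leaving out arrays their differences ranged as follows: Cdh1 -0.049 to 0.082, Cdh2 -0.24 to 0.61, Cdh5 -0.21 to 0.036, Cdh11 -0.21 to 0.13, Cdh13 -0.094 to 0.29, Cdh16 -0.066 to 0.069, Cldn1 -0.60 to 0.21, Cldn2 -0.24 to 0.11 and Cldn4 -0.31 to 0.78. For the remaining claudins they were Cldn5 -0.15 to 0.19, Cldn8 -0.0081 to 0.20, Cldn10 -0.12 to 0.23, Cldn12 -0.081 to 0.15, Cldn15 -0.085 to 0.20, Cldn16 -0.42 to 0.13 and Cldn19 -0.45 to 0.049. For other tight junction proteins they were Ocln -0.27 to 0.22, Tjp1 -0.18 to 0.24, Tjp3 -0.11 to 0.047, Cgn -0.19 to 0.0015, F11r -0.095 to 0.14 and Jam2 -0.50 to 0.15. Array weights gave Cdh2 0.40, Cdh11 0.062, Cdh16 -0.048, Cldn10 -0.081, Cldn12 0.083, F11r 0.069, Jam2 0.12, Ocln 0.038, Tjp1 0.20 and Tjp3 0.014. Quantile normalization gave Cdh1 -0.013 and Cdh16 -0.0084, the authors' deposited table gave -0.013 and -0.010, and normexp gave Cdh1 -0.015. With 3 arrays a group and dim probes such as those of Cldn18 and Cldn23 close to background, small differences could not be resolved.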
